A study of Mus musculus with 6 samples.

Results

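The genes described here encode the contractile apparatus of smooth muscle cells and myofibroblasts. They are the actins Acta2 and Actg2, the myosin heavy chain Myh11, the myosin regulatory light chain Myl9, the myosin light chain kinase Mylk, the actin-binding proteins Tagln, Cnn1 and Smtn, the actin nucleator Lmod1 and the intermediate filament protein Des. Members were chosen by gene symbol, and every probe carrying one of the 10 symbols was taken. The array held 15 probes for 9 of these genes, out of 25697 probes for 18138 gene symbols. No probe was listed under Myl9 or its synonyms.

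Gene expression was measured on Illumina MouseRef-8 v2.0 BeadChips with RNA of whole lung from male mice at postnatal day 6, of strain FVB by the labels and FVB/N by the study's methods, and the groups were 3 hSRY-OFF and 3 hSRY-ON mice with 1 array per mouse. hSRY-ON mice carried the Signalox-hSRY transgene, a single copy placed at a chosen locus, in which the CAG promoter drives a red fluorescent reporter until Cre removes it and then drives FLAG-tagged human SRY together with EGFP. Their mothers carried Ddx4-Cre, and Cre protein from the egg recombined the transgene in the fertilised egg, so recombination was not restricted to the lung or to muscle, and the mice selected for the arrays had not inherited Ddx4-Cre itself. The label hSRY-OFF is used by the study for mice in which the transgene was not recombined, but the study also describes its comparison mice as littermates with no transgene or with Ddx4-Cre only, so the genotype of the comparison group rests on its label.

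Between 13191 and 14134 probes were detected per array at a detection p under 0.05, and with 6 arrays the precision of all values below is limited. Across the 13841 probes kept for testing, arrays of the same group correlated at 0.991 to 0.993 (hSRY-OFF) and 0.972 to 0.980 (hSRY-ON), and arrays of different groups at 0.935 to 0.959. The lung label was examined with markers of its epithelium. Scgb1a1, a secretory protein of the airway, read 14.94 ± 0.05 in hSRY-OFF and 14.95 ± 0.12 in hSRY-ON lungs (normalized log2 intensity, mean ± SD of 3 arrays). Sftpc, the surfactant protein that marks type II alveolar epithelial cells, read 14.28 ± 0.05 and 14.03 ± 0.11 on the same scale. No probe for human SRY was on the array, so activity of the transgene could not be read from these data.

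Smooth muscle contracts when calcium activates Mylk, which phosphorylates the myosin light chain and lets myosin filaments pull on actin filaments. Tagln, Cnn1 and Smtn bind these actin filaments, and Des links the apparatus through the cell. In the lung, smooth muscle surrounds airways and larger vessels, and in the weeks after birth myofibroblasts that contain Acta2 lie at the tips of the septa that divide the air spaces into alveoli. Transcription of many of these genes depends on serum response factor, Srf, which binds a DNA element called the CArG box and is assisted there by myocardin, Myocd, or by the related factors Mkl1 and Mkl2.

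The CArG box was searched in the promoter windows of the members, because the regulators that act on it were also measured. A box was taken as CC, then 6 letters that are each A or T, then GG. This form reads the same on both strands. RefSeq promoter windows of GRCm38.p6, running from 250 bases before to 50 bases after the annotated start, were given for 7 of the 10 members, all but Tagln, Myh11 and Actg2. An exact box was present in the window of Myl9 alone, or 1 of 7, and 1.63% of all 32851 windows held one. With 1 C or G allowed among the 6 letters, a search added after the exact one had been seen, Acta2 also had a match, which made 2 of 7 members against 9.98% of all windows. The Acta2 matches and the exact Myl9 match are shown here with 15 bases on either side, 5′ to 3′ on the strand of the gene, with the box in capitals. Their positions are chr19:34255433-34255472 (minus strand), chr19:34255383-34255422 (minus strand) and chr2:156775288-156775327 (plus strand).
Acta2, box from -84 to -75 relative to the start: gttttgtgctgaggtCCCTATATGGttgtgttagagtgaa
Acta2, box from -34 to -25 relative to the start: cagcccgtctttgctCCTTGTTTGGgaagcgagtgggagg
Myl9, box from -161 to -152 relative to the start: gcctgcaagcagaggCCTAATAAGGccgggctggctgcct
These are matches of letters, and no binding was measured.

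Contractile gene probes were lower in hSRY-ON lungs. Of the 15 probes, 13 probes of 7 genes passed the detection filter, and all 13 were detected on every array. Among these, 11 were lower in hSRY-ON at an adjusted p under 0.05 and none was higher (limma, two-sided, Benjamini-Hochberg adjustment over all kept probes), and 12 had an unadjusted p under 0.05. That is 84.6% of the kept member probes, whereas of all 13841 kept probes 26.9% were called, 13.3% lower and 13.6% higher. Acta2, Actg2, Myh11, Mylk, Smtn and Des each had at least 1 probe that fell. Tagln was not called, and Cnn1 and Lmod1 were too dim to be tested. The median log2 change was -0.94 over the 13 member probes and -0.72 with 1 probe per gene, beside -0.03 over all kept probes. In a whole-lung sample, fewer cells of a type and less RNA per cell cannot be told apart.

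**Figure D1:**
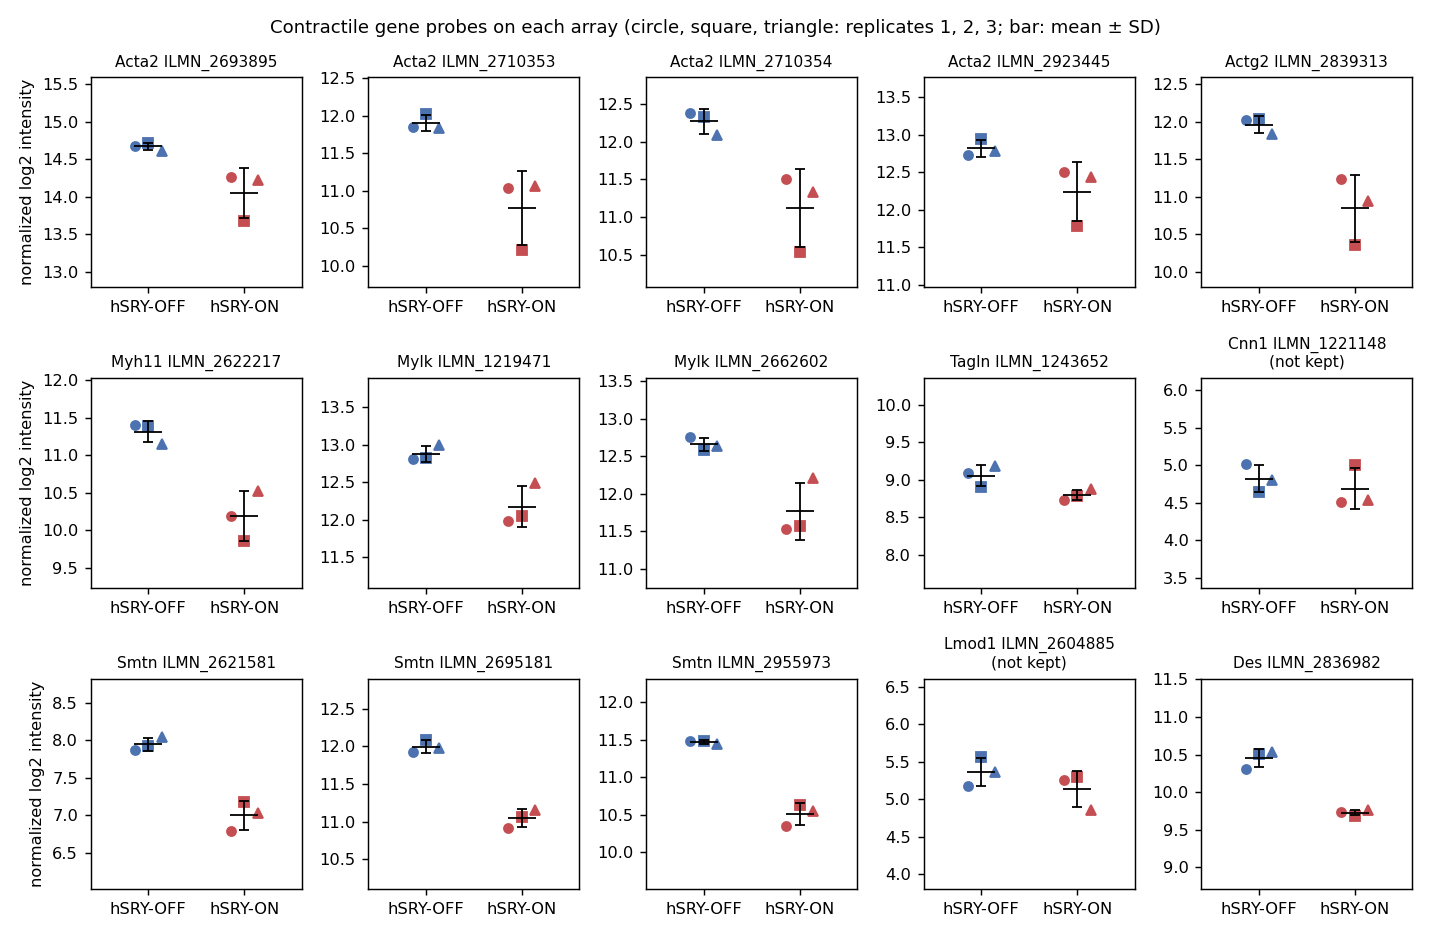
Normalized log2 intensity of each of the 15 contractile gene probes (vertical axis, a separate scale per probe) in hSRY-OFF and hSRY-ON lungs, with 1 symbol per array and the mean ± SD of 3 arrays. In all 13 kept probes every hSRY-ON array lies below every hSRY-OFF array, and in Cnn1 and Lmod1, which were not kept, the groups overlap.

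The plot of every probe by array shows this separation. In 13 of 13 kept member probes the highest hSRY-ON value was below the lowest hSRY-OFF value, while the groups did not overlap in 46.6% of all kept probes. For a single probe taken alone, 3 arrays against 3 cannot give an exact two-sided permutation p below 0.1, so the calls depend on limma's estimate of variance, which borrows from all probes. When hSRY-OFF replicate 1 or replicate 2 was left out, the number of member probes called lower was 5, where 4.41% and 4.84% of all kept probes were called lower. That share was 6.93% without hSRY-OFF replicate 3, and 17.2%, 8.41% and 14.5% without hSRY-ON replicates 1, 2 and 3. The leave-out counts of the lists below are to be read beside these shares.

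Acta2, the smooth muscle alpha-actin that also marks myofibroblasts, was read by 4 probes, and 3 of them fell. Probe ILMN_2693895 had normalized log2 intensities of 14.68, 14.72 and 14.62 on hSRY-OFF replicates 1 to 3 and of 14.27, 13.68 and 14.23 on hSRY-ON replicates 1 to 3. The hSRY-ON arrays were all lower, and replicate 2 was the lowest by a wide margin. Its log2 change was -0.62 ± 0.18 (SE), with a 95% interval from -1.03 to -0.20 and an adjusted p of 0.0412. Probe ILMN_2710353 read 11.85, 12.02 and 11.84 in hSRY-OFF and 11.04, 10.21 and 11.06 in hSRY-ON, a change of -1.13 ± 0.24 (SE) with an adjusted p of 0.0151. The third called probe, ILMN_2710354, read 12.39, 12.34 and 12.09 in hSRY-OFF and 11.51, 10.53 and 11.33 in hSRY-ON, and changed by -1.15 ± 0.26 (SE, adjusted p = 0.0183). In each of these probes the group values were apart and hSRY-ON replicate 2 was lowest. The remaining probe, ILMN_2923445, read 12.73, 12.94 and 12.78 in hSRY-OFF and 12.50, 11.79 and 12.43 in hSRY-ON, a difference of -0.58 ± 0.21 (SE) that did not pass the threshold (adjusted p = 0.0775).

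The size of the Acta2 change therefore depended on the probe, with hSRY-ON levels at 0.652, 0.457, 0.451 and 0.671 times the hSRY-OFF level in the order given. The intervals of the 4 probes overlapped, and whether the probes differ was not tested. The call of ILMN_2693895 was lost without any 1 of the hSRY-OFF arrays (adjusted p from 0.0968 to 0.129), with median scaling (0.0785) and with no detection filter (0.0565). ILMN_2923445 gained a call in 4 alternatives, without hSRY-ON replicate 1 (0.0451), without background correction (0.0457), with a variance trend and robust estimation (0.0416) and with array weights (0.0412), and its difference was -0.35 without hSRY-ON replicate 2.

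Actg2, the gamma-actin of visceral smooth muscle, fell as well. Its probe read 12.02, 12.03 and 11.84 in hSRY-OFF and 11.24, 10.36 and 10.94 in hSRY-ON lungs. All hSRY-ON arrays were lower, replicate 2 most of all. The log2 change was -1.12 ± 0.22 (SE), which puts the hSRY-ON level at 0.461 times that of hSRY-OFF (adjusted p = 0.0129). Leaving out hSRY-OFF replicate 1 or 2 ended this call and those of Acta2 ILMN_2710353 and ILMN_2710354 (adjusted p from 0.0542 to 0.0726).

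Myh11, the heavy chain of smooth muscle myosin and the most restricted marker of mature smooth muscle among these genes, fell by 1.12 ± 0.19 on the log2 scale (SE, adjusted p = 0.00716). Its values were 11.40, 11.39 and 11.15 on the hSRY-OFF arrays and 10.19, 9.86 and 10.52 on the hSRY-ON arrays. The gap between the lowest hSRY-OFF and the highest hSRY-ON array was 0.62. That was wider than the range within hSRY-OFF but not than the range within hSRY-ON, from 9.86 to 10.52. The hSRY-ON level was 0.461 times that of hSRY-OFF, and the call was kept in all 15 alternative analyses, including those that left out an array.

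Mylk, the kinase that switches smooth muscle myosin on, fell by both of its probes. Probe ILMN_1219471 read 12.82, 12.82 and 13.00 in hSRY-OFF and 11.98, 12.06 and 12.49 in hSRY-ON, a change of -0.70 ± 0.16 (SE, adjusted p = 0.0209). Probe ILMN_2662602 read 12.76, 12.59 and 12.64 in hSRY-OFF and 11.53, 11.57 and 12.21 in hSRY-ON, a change of -0.89 ± 0.20 (SE, adjusted p = 0.0176). Unlike in Acta2, hSRY-ON replicates 1 and 2 were close to each other and replicate 3 was nearest to the hSRY-OFF arrays. Leaving out any 1 of the hSRY-OFF arrays or hSRY-ON replicate 2 ended both calls (adjusted p from 0.0553 to 0.0739), and that of ILMN_1219471 was also lost with median scaling (0.0612).

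Smtn, smoothelin, an actin-binding protein of contractile smooth muscle, gave the smallest adjusted p-values among the members. Probe ILMN_2695181 read 11.92, 12.09 and 11.98 in hSRY-OFF and 10.92, 11.06 and 11.16 in hSRY-ON, a change of -0.95 ± 0.12 (SE, adjusted p = 0.00298). Probe ILMN_2955973 read 11.48, 11.48 and 11.44 against 10.35, 10.64 and 10.55, a change of -0.96 ± 0.12 (SE, adjusted p = 0.00304). The arrays of each group were close together here, and hSRY-ON replicate 2 did not stand apart. Probe ILMN_2621581, nearer to background, read 7.87, 7.92 and 8.04 against 6.80, 7.17 and 7.03, a change of -0.94 ± 0.14 (SE, adjusted p = 0.00463). The fitted changes of the 3 Smtn probes thus lay between -0.96 and -0.94, with hSRY-ON levels of 0.516 to 0.520 times those of hSRY-OFF. The calls were kept in all 15 alternatives, but without background correction the change of ILMN_2621581 was -0.50.

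Tagln, transgelin or SM22, an abundant actin-binding protein of smooth muscle, did not pass the threshold. Its probe read 9.09, 8.90 and 9.18 in hSRY-OFF and 8.74, 8.79 and 8.88 in hSRY-ON. The hSRY-ON arrays were all lower, but the groups were only 0.03 apart on the log2 scale. The difference was -0.26 ± 0.12 (SE), with a 95% interval from -0.55 to 0.04 and an adjusted p of 0.164. It was not called in any alternative analysis (adjusted p from 0.113 to 0.384). The interval includes no difference, and whether Tagln differs from the other members was not tested.

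Cnn1, calponin, an actin-binding protein that restrains myosin, was not detected on any array. Its deposited intensities were 166, 145 and 172 in hSRY-OFF and 143, 161 and 148 in hSRY-ON, with detection p-values between 0.118 and 0.855. Lmod1, leiomodin, which starts new actin filaments, was detected on 1 hSRY-OFF array and no hSRY-ON array, with deposited intensities of 172, 177 and 196 against 175, 169 and 164. Neither probe stood clear of background, so these arrays hold no usable level for either gene.

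Des, desmin, the intermediate filament of smooth, cardiac and skeletal muscle, fell by 0.72 ± 0.12 on the log2 scale (SE, adjusted p = 0.00633). Its values were 10.31, 10.51 and 10.54 in hSRY-OFF and 9.74, 9.69 and 9.76 in hSRY-ON lungs. The hSRY-ON arrays were nearly level, and the hSRY-ON mean was 0.605 times that of hSRY-OFF. The call was kept in all 15 alternatives.

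**Figure D2:**
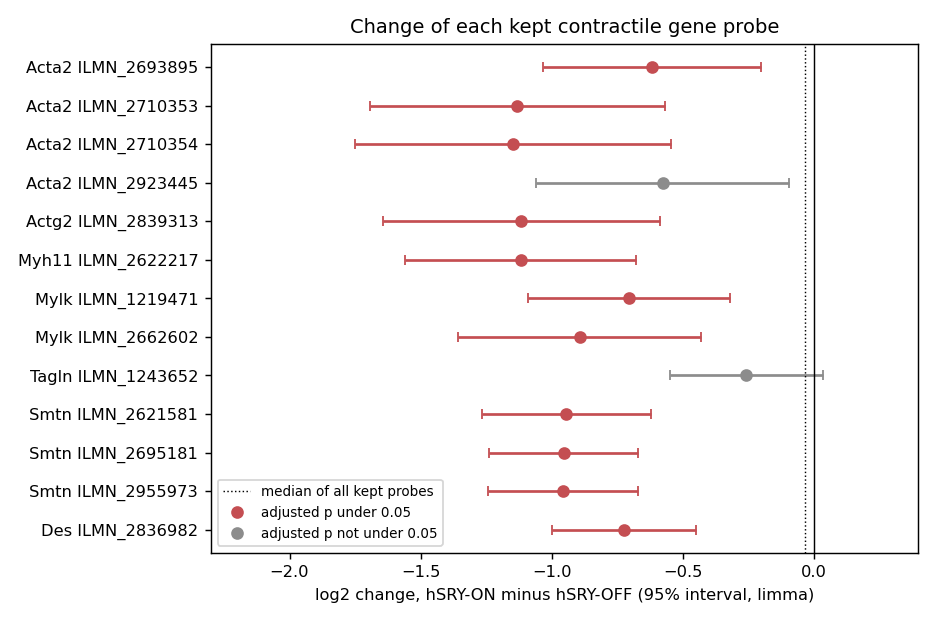
Fitted log2 change (hSRY-ON minus hSRY-OFF, horizontal axis) of the 13 kept contractile gene probes, with 95% intervals from limma, coloured by whether the adjusted p was under 0.05, and the median of all kept probes as a dotted line. All 13 estimates lie left of that line, and only the interval of Tagln reaches 0.

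The plot of fitted changes places the members in order. The estimates ran from -1.15 for Acta2 ILMN_2710354 to -0.26 for Tagln. Actg2 and Myh11 lay near the lower end, Smtn in the middle and Des and Acta2 ILMN_2693895 nearer 0. The intervals of neighbouring probes overlapped, so the order of neighbours is not resolved by the data. The Tagln interval, from -0.55 to 0.04, lay above those of the Smtn probes, Myh11, Actg2 and Acta2 ILMN_2710353. The upper ends of those intervals ran from -0.68 for Myh11 to -0.57 for Acta2 ILMN_2710353. The Tagln interval overlapped those of the remaining kept probes, and differences between probes were not tested.

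The hSRY-ON arrays did not share 1 profile over these genes. The median SD of a member probe was 0.105 within hSRY-OFF and 0.330 within hSRY-ON, beside 0.130 and 0.224 over all kept probes. The SD was larger in hSRY-ON for 11 of 13 member probes and for 73.6% of all kept probes. The exceptions were Tagln and Des. The median difference of the 13 member probes from their hSRY-OFF mean was -0.861 on hSRY-ON replicate 1, -0.997 on replicate 2 and -0.786 on replicate 3, so the fall was seen on each of the 3 arrays. All 4 probes of Acta2 and those of Actg2, Myh11 and Des were lowest on hSRY-ON replicate 2. Both Mylk probes, all 3 Smtn probes and Tagln were lowest on replicate 1.

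**Figure D3:**
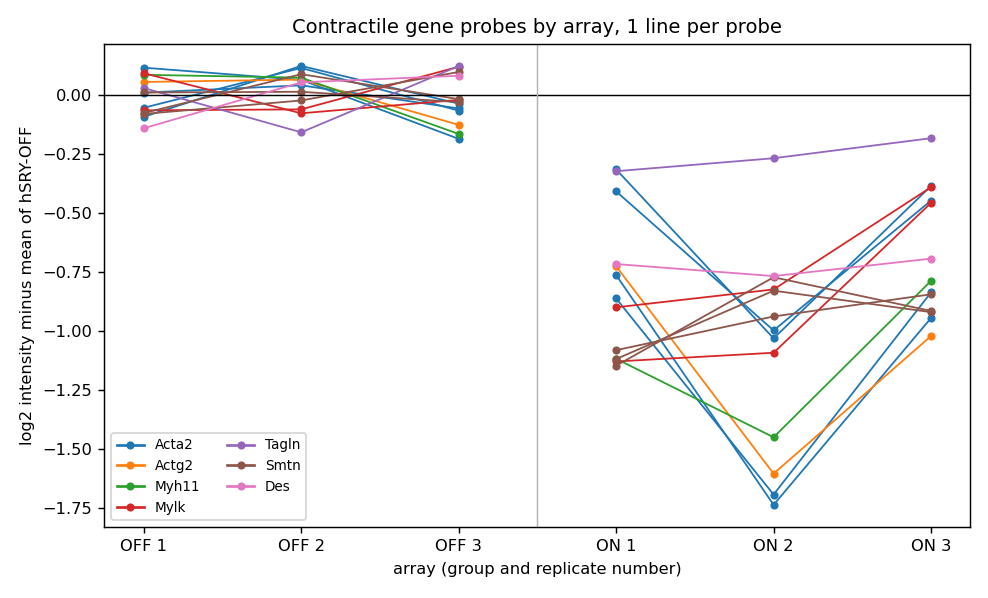
Log2 intensity minus the hSRY-OFF mean of the same probe (vertical axis) on each of the 6 arrays (horizontal axis), with 1 line per kept contractile gene probe, coloured by gene. The lines only join values of the same probe, since replicates have no order, and the Acta2, Actg2 and Myh11 probes dip on hSRY-ON replicate 2 while the Mylk and Smtn probes do not.

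The plot of profiles by array shows the dip of actin and Myh11 probes on hSRY-ON replicate 2. It reached -1.74 below the hSRY-OFF mean for an Acta2 probe, while the hSRY-OFF arrays stayed between -0.184 and 0.125 of that mean. As a description over the same 6 arrays, the genes nearest in profile were found by the root mean square difference from an anchor probe after centring each probe on its hSRY-OFF mean. Nearest to Acta2 ILMN_2693895 were Hmgb2l1 (0.030), Zfp532 (0.071), Ubl4 (0.078), Uros (0.079) and Elk3 (0.083). Nearest to Myh11 were Khdrbs1 (0.072), Cxx1c (0.075), Adamts7 (0.086), Fancc (0.089) and Pold1 (0.090). Each profile is fixed mostly by the step between groups, so a small difference says only that the probe moved by a like amount on each array.

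Among the transcription factors that act on smooth muscle genes, 6 of 11 kept genes fell, none rose and 5 were not called. The 6 were Srf, Myocd, Foxf1a, Zeb1, Tbx4 and Klf4. Klf4 was called by ILMN_1241903 only (change -0.71, adjusted p = 0.0399), and its other kept probes were not called. Of the 5 not called, Gata6 and Tcf21 had positive changes (0.33 and 0.23), and Mkl1, Fhl2 and Tbx5 had negative ones. By probes, 7 of 14 (50%) were lower, beside 13.3% of all kept probes. Without any 1 of the hSRY-OFF arrays 4 probes were lower, where 4.41% to 6.93% of all kept probes were. Srf, the factor that binds the CArG box, fell by both of its probes. Probe ILMN_2988299 read 10.41, 10.80 and 10.87 in hSRY-OFF and 9.77, 9.50 and 9.71 in hSRY-ON, a change of -1.03 ± 0.16 (SE, adjusted p = 0.00575), and ILMN_1242533 changed by -0.90 ± 0.17 (SE, adjusted p = 0.00974). Myocd, the muscle-restricted partner of Srf, fell by 0.86 ± 0.16 (SE, adjusted p = 0.00936) on 1 probe, with values of 7.21, 6.94 and 6.75 against 6.03, 6.28 and 6.01. Its other 2 probes did not pass the detection filter. Without background correction the changes of Myocd and of Srf ILMN_1242533 were -0.32 and -0.29, still called.

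The related partner Mkl1 read 6.42, 6.18 and 6.16 in hSRY-OFF and 5.32, 5.81 and 6.09 in hSRY-ON. Its groups were apart, but the difference of -0.51 ± 0.21 (SE) did not pass the threshold (adjusted p = 0.111). It passed without hSRY-ON replicate 3 (0.0408) and was -0.30 without hSRY-ON replicate 1. None of the 3 probes of Mkl2 was detected on any array. Foxf1a, a forkhead factor of lung mesenchyme, read 11.81, 12.34 and 11.82 against 10.62, 10.88 and 10.86, a change of -1.21 ± 0.18 (SE, adjusted p = 0.00490). Zeb1, a zinc finger factor of mesenchymal cells, fell by 0.43 ± 0.11 (SE, adjusted p = 0.0294), a call lost with median scaling (0.110) and without any 1 of hSRY-OFF replicates 1 to 3 or hSRY-ON replicate 3 (0.0522 to 0.110).

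**Figure D4:**
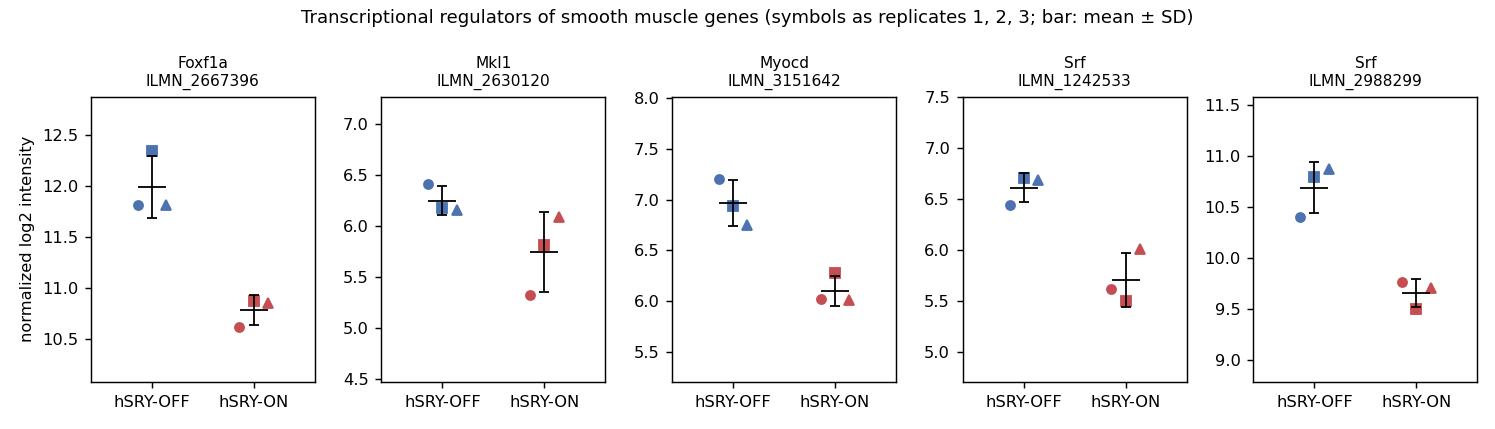
Normalized log2 intensity (vertical axis, a separate scale per probe) of the kept probes of Foxf1a, Mkl1, Myocd and Srf in hSRY-OFF and hSRY-ON lungs, with 1 symbol per array and the mean ± SD of 3 arrays. In all 5 probes the hSRY-ON arrays lie below the hSRY-OFF arrays, and the gap is smallest in Mkl1, which was not called.

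The plot of the regulators shows no overlap between groups in any of the 5 probes, where 46.6% of all kept probes had none. The plotted genes are a choice from the list. Of its other kept probes, those of Tcf21 and Tbx5 and Klf4 ILMN_2999439 overlapped, and Gata6 was higher on all hSRY-ON arrays without being called (adjusted p = 0.0871). The rest, of Zeb1, Tbx4, Fhl2 and the other Klf4 probes, were lower on all hSRY-ON arrays. In Srf ILMN_2988299 and Foxf1a the hSRY-ON arrays lay close together, and hSRY-ON replicate 2 did not stand apart as it did in Acta2.

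Other genes of the smooth muscle thin filament and cytoskeleton were in part lower. Of 13 kept genes, 5 fell, none rose and 8 were not called, and 6 of 15 probes (40%) were lower, beside 13.3% of all kept probes, or 9 without hSRY-ON replicate 1, where 17.2% of all were. That number was 3 when hSRY-OFF replicate 1 or 2 was left out and 4 when replicate 3 was. Pdlim3 and Pdlim7, adaptor proteins of the actin cytoskeleton, changed by -1.64 ± 0.27 (SE, adjusted p = 0.00716) and -0.80 ± 0.11 (SE, adjusted p = 0.00403). Tpm2, a muscle tropomyosin that lies along actin, changed by -0.70 ± 0.15 (SE, adjusted p = 0.0145), and this call was lost without hSRY-OFF replicate 1 or 2 (0.0607 and 0.0644). Cnn2, the calponin of non-muscle and smooth muscle cells, was not detected on any hSRY-ON array by probe ILMN_2596369. This probe passed the filter only through the hSRY-OFF arrays, so its call, counted above, is not read as a test. It was at least 2.23-fold lower, setting the hSRY-OFF mean against the level at which probes are detected. That bound holds for background-corrected values, and without background correction the log2 change was -0.44. Leaving out any 1 hSRY-OFF array took the probe below the detection filter. Its other probe differed by -0.54 and was not called (adjusted p = 0.0534). With only probes detected on all 6 arrays, which leaves ILMN_2596369 out, 6 of 13 probes of the list were lower, beside 14.3% of all probes tested.

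Of the genes that set myosin phosphorylation, 7 were kept, of which 1 fell, 1 rose and 5 were not called, and the median change was -0.23. By probes 2 of 9 (22.2%) were lower and 1 (11.1%) was higher, beside 13.3% and 13.6% of all kept probes, and the number lower was 0 without hSRY-OFF replicate 1 or 2 or hSRY-ON replicate 2, 1 without hSRY-OFF replicate 3 or hSRY-ON replicate 3 and 4 without hSRY-ON replicate 1. Ppp1cb, a catalytic subunit of the phosphatase that opposes Mylk, read 9.20, 9.24 and 8.68 in hSRY-OFF and 8.30, 7.18 and 6.85 in hSRY-ON, a change of -1.59 ± 0.37 (SE, adjusted p = 0.0206) that was lost without hSRY-OFF replicate 1 or 2 or hSRY-ON replicate 2 (0.0697 to 0.0776). Prkg1, the cyclic GMP-dependent kinase that relaxes smooth muscle, was higher by 0.42 ± 0.12 (SE, adjusted p = 0.0375). That probe was detected on 2 of 3 hSRY-OFF arrays, its call was lost in 10 of 14 alternatives (adjusted p up to 0.280), and its change was 0.10 without background correction.

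Among the calcium and signalling genes of smooth muscle, 3 of 9 kept genes fell, 1 rose and 5 were not called. By probes 5 of 12 (41.7%) were lower, beside 13.3% of all kept probes, or 3 without hSRY-OFF replicate 1 or 2, where 4.41% and 4.84% of all were. Gucy1a3, a subunit of the nitric oxide receptor guanylate cyclase, read 10.97, 10.92 and 10.81 in hSRY-OFF and 9.46, 8.99 and 9.25 in hSRY-ON, a change of -1.67 ± 0.15 (SE, adjusted p = 0.00108). All of its 3 kept probes fell. The partner subunit Gucy1b3 changed by -0.93 ± 0.20 (SE, adjusted p = 0.0147) and Pde5a, which breaks down cyclic GMP, by -1.09 ± 0.23 (SE, adjusted p = 0.0157). Gucy1b3 lost its call without hSRY-OFF replicate 2 or 3 (0.0620 and 0.0541) and Pde5a without hSRY-OFF replicate 1 (0.0630). Itpr1, a calcium release channel of many cell types, rose by 0.69 ± 0.13 (SE, adjusted p = 0.00926).

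Genes described for alveolar myofibroblasts split into called and uncalled members. Of 8 kept genes, 3 fell, none rose and 5 were not called, and 6 of 11 probes (54.5%) were lower, beside 13.3% of all kept probes. Without any 1 of the hSRY-OFF arrays 4 were lower, where 4.41% to 6.93% of all kept probes were. Without hSRY-ON replicate 1 it was also 4, where 17.2% of all were. Cdh11, a mesenchymal cadherin, changed by -1.45 ± 0.18 (SE, adjusted p = 0.00298), Tgfbi, a matrix protein induced by TGF-beta, by -1.38 ± 0.19 (SE, adjusted p = 0.00396), and the ligand Wnt5a by -1.38 ± 0.21 (SE, adjusted p = 0.00530). Each of these genes had 2 kept probes, and both were called lower. Among the genes most used to define these cells, Pdgfra and Eln were not called, and they are named here outside the rule after their values were seen. Pdgfra, the PDGF receptor of alveolar myofibroblasts and other fibroblasts, read 10.69, 10.84 and 11.19 in hSRY-OFF and 11.08, 11.40 and 10.83 in hSRY-ON, with overlapping groups (change 0.19, adjusted p = 0.495). Eln, elastin, read 14.22, 14.31 and 14.21 against 14.53, 14.63 and 14.56, higher on all hSRY-ON arrays without passing the threshold (change 0.33, adjusted p = 0.0592).

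**Figure D5:**
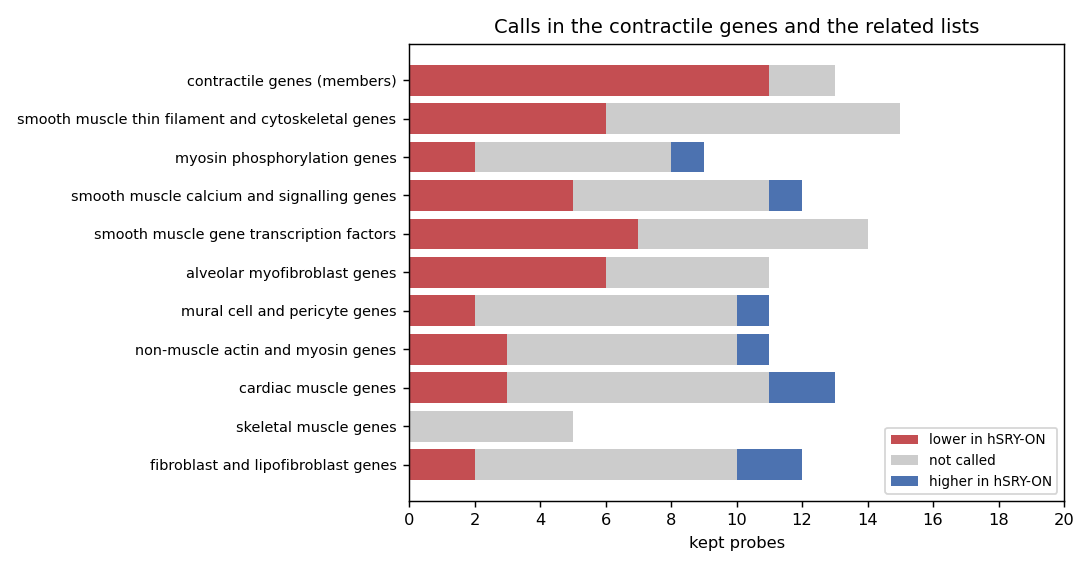
Number of kept probes (horizontal axis) called lower, not called and called higher in hSRY-ON for the contractile genes and for each related gene list, at an adjusted p under 0.05. The contractile genes have 11 of 13 probes lower, and no related list exceeds 7 probes lower.

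The plot of calls by list sets the members beside the other cell types a lung sample can hold. In mural cell and pericyte genes 2 of 9 kept genes fell, 1 rose and 6 were not called, and 2 of 11 probes (18.2%) were lower and 1 (9.09%) higher, near the 13.3% and 13.6% of all kept probes. The number lower was 1 without hSRY-OFF replicate 2, 5 without background correction and 4 with a variance trend and robust estimation. With 1 probe per gene, called or not, the median change was -0.32. Of the 9 genes 7 had a negative change, beside 53.2% of all kept probes. Pdgfrb, the pericyte PDGF receptor, changed by -0.77 ± 0.15 (SE, adjusted p = 0.0121, 0.0558 without hSRY-OFF replicate 2) and the mitochondrial subunit Cox4i2 by -1.28 ± 0.23 (SE, adjusted p = 0.00904), whereas Abcc9, a potassium channel regulator, rose by 0.99 ± 0.18 (SE, adjusted p = 0.00868). The summed level of the list, the log2 of the sum of normalized intensities over the brightest kept probe of each gene, was 13.81 to 13.89 in hSRY-OFF and 13.41 to 13.53 in hSRY-ON. Its part in the lower contractile genes was not tested.

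Non-muscle actin and myosin genes, a list with the tropomyosins Tpm3 and Tpm4, gave 3 genes lower, 1 higher and 3 not called of 7 kept. Of 11 probes 3 (27.3%) were lower and 1 (9.09%) higher, beside 13.3% and 13.6% of all kept probes. The number lower was 1 without hSRY-OFF replicate 1 or 2 or with median scaling and 2 without hSRY-OFF replicate 3 or hSRY-ON replicate 2. Tpm3 and Tpm4, non-muscle tropomyosins, changed by -0.65 ± 0.11 (SE, adjusted p = 0.00730) and -0.56 ± 0.11 (SE, adjusted p = 0.0119), and Myh10, a non-muscle myosin heavy chain, by -0.58 ± 0.16 (SE, adjusted p = 0.0365). The call of Tpm4 was lost with median scaling (change -0.36) and without hSRY-OFF replicate 1 or 2 (0.0561 and 0.0533), and that of Myh10 with median scaling (0.0688) and without any 1 array other than hSRY-ON replicate 3 (0.0633 to 0.125). Probes of Actb, beta-actin, disagreed. ILMN_1377923 was higher by 1.64 ± 0.28 (SE, adjusted p = 0.00775), while the other 2 kept probes differed by -0.40 and -0.16 and were not called. The summed level of the list was 15.93 to 15.96 in hSRY-OFF and 15.55 to 15.66 in hSRY-ON, and its part in the result was not tested.

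Cardiac muscle genes bear on Des, since cardiac muscle also makes desmin. Of 10 kept genes 3 fell, 2 rose and 5 were not called, and 3 of 13 probes (23.1%) were lower and 2 (15.4%) higher, beside 13.3% and 13.6% of all kept probes. The number lower was 6 without hSRY-ON replicate 1, 5 with median scaling and 1 without any other array. Myl4, an atrial myosin light chain, read 12.25, 12.48 and 12.64 in hSRY-OFF and 10.49, 9.94 and 11.12 in hSRY-ON, a change of -1.94 ± 0.29 (SE, adjusted p = 0.00501), and Csrp3, a muscle LIM protein, changed by -0.80 ± 0.22 (SE, adjusted p = 0.0374). The other kept Csrp3 probes differed by -0.69 and -0.27, with overlapping groups, and were not called (adjusted p = 0.0735 and 0.520). The ventricular light chain Myl3 rose by 1.12 ± 0.16 (SE, adjusted p = 0.00437), as did the thick filament protein Mybpc3, by 0.96 ± 0.21 (SE, adjusted p = 0.0172). The Csrp3 call was lost without any 1 array other than hSRY-ON replicate 1 (0.0759 to 0.124), and that of Mybpc3 without hSRY-OFF replicate 1 or hSRY-ON replicate 2 (0.0513 and 0.0519), with a change of 0.39 without background correction. The genes that follow are named outside the rule. Sln was the third gene that fell (change -0.88, adjusted p = 0.0425). Myl7 (-0.99, adjusted p = 0.0719) and Tnnc1 (-0.51, adjusted p = 0.0730) were lower on all hSRY-ON arrays but not called. Myh6, the alpha myosin heavy chain, was not called (change 0.08, adjusted p = 0.873). The groups overlapped in Myh6, as in both kept Actc1 probes and the Tnni3 probe, none of which was called. The summed level was 13.44 to 13.82 in hSRY-OFF and 12.72 to 13.22 in hSRY-ON, and its part in the fall of Des was not tested.

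Skeletal muscle genes gave no call among 5 kept of 10, where 26.9% of all kept probes were called. With 5 probes the lack of a call says little. Only 1 gene, Ckm, had an unadjusted p under 0.05 (limma). In other settings 1 was lower with median scaling or an offset of 50, and 1 was higher without hSRY-OFF replicate 3. The summed levels were 8.45 to 9.24 in hSRY-OFF and 8.65 to 8.92 in hSRY-ON. Of the markers, named here outside the rule, the perinatal myosin Myh8 was kept by 1 probe detected on 2 arrays of each group (change 0.24, adjusted p = 0.778), and Tnni2, Tnnt3 and Mylpf were also kept. The adult fast myosins Myh1 and Myh4 were not detected on any array, and Acta1, skeletal alpha-actin, was detected on 2 hSRY-OFF arrays and no hSRY-ON array. In fibroblast and lipofibroblast genes there were 2 genes higher, 2 lower and 5 not called of 9 kept. Of 12 probes 2 (16.7%) were lower and 2 (16.7%) higher, near the 13.3% and 13.6% of all kept probes. The number lower was 0 without hSRY-OFF replicate 1 or 2 or hSRY-ON replicate 2, 1 without hSRY-OFF replicate 3, 4 without hSRY-ON replicate 1 and 3 with median scaling, and the list had a summed level of 14.74 to 14.82 in hSRY-OFF and 14.71 to 14.95 in hSRY-ON. Dcn, decorin, a matrix proteoglycan, rose by 0.98 ± 0.18 (SE, adjusted p = 0.00977) and Plin2, a lipid droplet protein, by 1.02 ± 0.16 (SE, adjusted p = 0.00563). The other kept Dcn probe differed by 0.57, with overlapping groups, and was not called (adjusted p = 0.251). Gyg, glycogenin, and Col1a1, a collagen chain, changed by -1.15 ± 0.33 (SE, adjusted p = 0.0397) and -0.60 ± 0.18 (SE, adjusted p = 0.0494). Leaving out hSRY-OFF replicate 1 or 2 or hSRY-ON replicate 2 ended both of these calls, that of Gyg also without hSRY-OFF replicate 3 or hSRY-ON replicate 3, and that of Col1a1 also without hSRY-ON replicate 1 and with median scaling (adjusted p from 0.0852 to 0.160). By its other kept probe Gyg differed by -1.28 and was not called (adjusted p = 0.0745).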

How the data were processed

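Biotin-labelled copies of total lung RNA were measured on MouseRef-8 v2.0 BeadChips (Illumina). The authors deposited un-normalized values, with an intensity (mean bead signal, linear scale) and a detection p-value for each probe and array, which is the p-value against the negative control probes of that array. The bead summary software is not given in the sources used here. The study's methods name TCC, a package built for counts, while the deposited values are intensities, and the submitters' processing notes list limma, so the fits used limma 3.58.1 (R 4.3.3).

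The intensities were background-corrected by normexp, with the background taken from the detection p-values and an offset of 16, then quantile-normalized between arrays and put on the log2 scale. This fixes every array to the same distribution, and the offset compresses changes of dim probes. A probe was kept if 3 or more of the 6 arrays detected it at p under 0.05, which 13841 did. Groups came from the sample labels and their contrast was fitted by lmFit and eBayes with no covariate, with Benjamini-Hochberg adjustment over all kept probes and a threshold of 0.05. Probes of a gene were kept apart, and no probe's level was set against another's. No column of per-sample values was left unmapped (0). The pipeline was tested on simulated data.

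The members and the 10 related lists were chosen with earlier results of these data known, so their counts are descriptions, and no list was tested as a set. Older array symbols were matched through RefSeq synonyms (GRCm38.p6), which left 8 list genes with no probe (Tagln2, Ppp1r12a, Ppp1r12b, Itga8, Ndufa4l2, Actg1, Tnnt2 and Fn1). Named genes were all members, up to 4 called genes of smallest p per list, Srf, Myocd, Mkl1 and Mkl2, and the 5 genes nearest in profile to the Acta2 and Myh11 probes of highest mean. Pdgfra, Eln, Myh6 and the skeletal muscle genes were named outside this rule, after their values were seen, as markers. So were further genes of the transcription factor, alveolar myofibroblast and cardiac lists, to give those lists more fully. Scgb1a1 and Sftpc were named to examine the lung label. The lists of myofibroblast and fibroblast genes share Pdgfra, and those of transcription factors and fibroblasts share Tcf21. A probe not detected on any array of a group is given as a bound, with the floor at the lowest detected signal of each array. Alternatives covered background correction, normalization, the filter, variance model, array weights, a replicate block, a stricter threshold, 1 probe per gene and leaving out each array.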

Additional observations from a re-analysis of the deposited data

How the results depend on the processing

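All 13 member probes kept a lower hSRY-ON mean in every setting tried, and no call was made in the other direction. The median change over the 13 member probes ranged from -0.97 to -0.84 when the filter kept those 13, and was -0.89 over 15 probes with no detection filter and -0.72 with 1 probe per gene. The number of member probes called, all of them lower, was 11, and it was 5 at an adjusted p under 0.01, where 1326 of all probes were called instead of 3728. It was 6 of 7 with 1 probe per gene, where 13.6% of all 10292 probes tested were called lower. When 1 array was left out, it ranged from 5 to 12, and the number over all probes from 1504 to 4384. The lowest member count came without hSRY-OFF replicate 1 or 2 and the highest without hSRY-ON replicate 1, and the cause was not tested. The other planned settings gave 9 to 12 member probes. Smtn, Des and Myh11 kept their calls in all 15 alternatives, and Tagln had none. Samples of like replicate number did not deviate together (correlations of -0.107, 0.0957 and -0.0927), so the numbers were not taken to pair mice. With the replicate block, 10 member probes and 2655 of all probes were called, and the lost member was Acta2 ILMN_2693895 (adjusted p = 0.0725). Of the other named genes, Prkg1, Zeb1, Myh10, Csrp3 and Col1a1 also lost their calls under the block, and Gyg, Csrp3 and Col1a1 lost theirs with no detection filter (0.0553 to 0.0686). Without background correction, several changes moved over 1.5 times closer to 0, among them Cnn2 ILMN_2596369 (-0.44), Cdh11 (-0.56), Wnt5a (-0.54), Pde5a (-0.38), Ppp1cb (-1.02), Abcc9 (0.65) and Mkl1 (-0.15). With all arrays and all probes of a gene, the number of probes lower ranged over the settings from 4 to 7 in the thin filament list, 0 to 3 in myosin phosphorylation, 2 to 7 in calcium and signalling, 4 to 9 in transcription factors, 4 to 6 in alveolar myofibroblast, 1 to 5 in mural and in non-muscle, 1 to 6 in cardiac, 0 to 1 in skeletal and 0 to 4 in fibroblast genes. Over those settings 4% to 15.1% of all probes tested were called lower. With 1 mismatch allowed, 2 members instead of 1 had a CArG match. Dim probes limit what can be read of Cnn1, Lmod1 and Mkl2.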
